A study of Arabidopsis thaliana with 30 samples.

Results

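The genes described are 44 genes of Arabidopsis thaliana for proteins of the cytosolic ribosome, 27 of the large and 17 of the small subunit, out of 32833 genes in each of 2 count tables. They were taken by name as a gene family, though with earlier results of these data known, and encode 29 different proteins. All 44 were present in both tables and passed the filter on low counts, as did 20666 genes in the first and 20385 in the second table. A further 32 genes in the reference annotation encode paralogs of the same proteins and served for comparison.

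Poly-A RNA from whole seedlings, 6 days old, was sequenced from 30 libraries in 10 groups of 3. The first set of 12 libraries held the wild type Col and bak1-3 bkk1-1, a line with T-DNA insertions in BAK1 and BKK1, which encode receptor kinases of the cell surface. The second set of 18 libraries held its own Col, tcp21 and tcpq, which the labels describe as Crispr lines. TCP21 encodes a transcription factor of the plant TCP family; the labels do not name the genes altered in tcpq. Every genotype was given as mock-treated and as submerged seedlings, and the stated aim was to profile mutants that are sensitive to submergence. The duration of submergence is not given in the sources used here, nor whether replicates came from separate plantings, so the p-values cover only the scatter among these libraries, which may be technical. The sets had separate tables and were fitted apart.

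Library totals ran from 17466180 to 33957452 counts. BAK1 fell by 1.48 and BKK1 (AT2G13790, symbol SERK4 in RefSeq) by 1.49 on the log2 scale in mock bak1-3 bkk1-1 against Col, and TCP21 (AT5G08330) by 1.64 in mock tcp21 and 2.07 in mock tcpq. Under submergence TCP21 was lower than in Col by 1.75 in tcp21 (log2 fold change -1.75) but only by 0.36 in tcpq (-0.36), where it rose from 22.1 to 60.7 CPM (counts scaled to library size) against 78.2 CPM in submerged Col. For the first mock Col library of the tcp set, the genotype field names bak1-3 bkk1-1 while title and strain name Col; its BAK1 level was 78.7 CPM beside 75.3 and 82.2 CPM in its fellow mock Col libraries. Seed storage transcripts (9 genes) summed to 262 CPM in 1 mock Col library of the bak set against 1.20 and 1.31 CPM in the others, and to between 131 and 261 CPM in the submerged Col libraries, but to at most 11.4 CPM in bak1-3 bkk1-1. The 4 genes used as leaf mesophyll markers were above 0 in every library, as were the 8 root markers. Here and below, sums of marker genes use plain library totals. Whether the sum of such markers follows the share of a tissue or the regulation of these genes was not tested.

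Ribosomes translate messenger RNA into protein and are built in the nucleolus from ribosomal RNA and proteins. In plants each ribosomal protein is encoded by a small gene family, and transcription of these genes is known to be high in dividing and growing tissue and to be adjusted to energy supply. Low oxygen under water restricts respiration, and translation is known to be curtailed under such conditions. Upstream regions of plant ribosomal protein genes often carry the telo box and the site II element, which TCP transcription factors can bind.

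The 250 bases upstream of the annotated transcript start were read from RefSeq's TAIR10.1 assembly for all 44 genes and searched on both strands for the telo box AAACCCTA and for site II, taken here as TGGGCC or TGGGCT. The telo box was found in 7 of 44 windows (15.9%) and site II in 26 of 44 (59.1%). Over all 27443 nuclear protein-coding genes the shares were 4.49% and 19.2%, and over the 32 other paralogs 28.1% and 78.1%. The motifs can share letters where they meet, and a TGGGCCCA stretch holds site II on both strands. The windows shown are those of the paralog pairs of proteins S9, L13 and SA, the pairs within the 44 genes with the largest shifts of balance under submergence in either set; capitals mark the motifs, on either strand, and each window reads 5′ to 3′ toward the gene.
S9 AT5G15200 (chr5:4936430-4936679, minus strand): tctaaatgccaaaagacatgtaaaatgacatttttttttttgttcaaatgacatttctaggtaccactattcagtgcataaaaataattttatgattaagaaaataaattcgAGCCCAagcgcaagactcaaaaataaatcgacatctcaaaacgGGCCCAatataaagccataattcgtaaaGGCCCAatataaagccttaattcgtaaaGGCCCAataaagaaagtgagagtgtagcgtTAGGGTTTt
S9 AT5G39850 (chr5:15949660-15949909, plus strand): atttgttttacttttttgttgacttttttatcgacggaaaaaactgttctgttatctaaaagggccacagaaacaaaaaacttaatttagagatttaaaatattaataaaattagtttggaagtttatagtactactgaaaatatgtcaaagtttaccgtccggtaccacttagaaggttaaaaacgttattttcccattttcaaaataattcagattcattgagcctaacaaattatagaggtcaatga
L13 AT3G49010 (chr3:18168701-18168950, minus strand): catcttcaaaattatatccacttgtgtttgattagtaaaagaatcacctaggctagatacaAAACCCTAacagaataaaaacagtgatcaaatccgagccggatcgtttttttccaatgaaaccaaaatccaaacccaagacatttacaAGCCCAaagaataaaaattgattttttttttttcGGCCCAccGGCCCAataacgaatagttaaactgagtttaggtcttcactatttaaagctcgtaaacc
L13 AT5G23900 (chr5:8065551-8065800, minus strand): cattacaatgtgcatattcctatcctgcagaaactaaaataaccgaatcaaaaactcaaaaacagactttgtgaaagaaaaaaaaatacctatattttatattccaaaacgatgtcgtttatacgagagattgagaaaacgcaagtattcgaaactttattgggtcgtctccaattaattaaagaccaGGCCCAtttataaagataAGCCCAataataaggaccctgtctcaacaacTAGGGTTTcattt
SA AT1G72370 (chr1:27244932-27245181, minus strand): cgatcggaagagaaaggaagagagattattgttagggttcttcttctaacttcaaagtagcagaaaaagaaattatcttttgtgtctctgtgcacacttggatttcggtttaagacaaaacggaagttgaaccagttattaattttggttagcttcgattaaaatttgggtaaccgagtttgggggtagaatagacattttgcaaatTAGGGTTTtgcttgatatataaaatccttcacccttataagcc
SA AT3G04770 (chr3:1311130-1311379, minus strand): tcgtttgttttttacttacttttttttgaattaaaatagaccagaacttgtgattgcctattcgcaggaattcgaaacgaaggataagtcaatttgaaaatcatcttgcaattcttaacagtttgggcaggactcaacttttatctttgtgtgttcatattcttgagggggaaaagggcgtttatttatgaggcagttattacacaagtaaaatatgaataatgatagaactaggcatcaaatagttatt
The window of the abundant S9 gene AT5G15200 held 4 site II elements and 1 telo box, and that of the scarce AT5G39850 held neither. Both L13 windows held site II, 3 times in AT3G49010 and 2 times in AT5G23900, with 1 telo box each. Of the SA pair, AT1G72370 held 1 telo box and AT3G04770 neither motif. A match describes letters only, and no match says only that these letters are not in this window.

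Levels of the 44 genes differed widely in mock-treated Col when scaled per kilobase of coding length. The highest was S8 AT5G20290, a protein of the small subunit, at 777, 746 and 677 CPM per kb in the bak set and 503, 738 and 632 CPM per kb in the tcp set. L19 AT1G02780, of the large subunit, followed at a mean of 681 ± 25.8 and 620 ± 36.3 CPM per kb (SD, n = 3), and S9 AT5G15200 at 595 ± 22.4 and 594 ± 93.3 CPM per kb. In the tcp set these 3 genes lay within each other's spread, and the same genes held the first 3 ranks in both sets. The lowest were SA AT3G04770 at 7.13 ± 0.66 and 5.10 ± 0.46 CPM per kb, S9 AT5G39850 at 14.6 ± 0.52 and 28.2 ± 1.37 CPM per kb, and P0 AT3G11250 at 33.1 ± 1.23 and 20.1 ± 0.80 CPM per kb. Each of these scarce genes has a far more abundant paralog for the same protein, and S9 AT5G39850 and P0 AT3G11250 exchanged ranks between the sets.

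**Figure D1:**
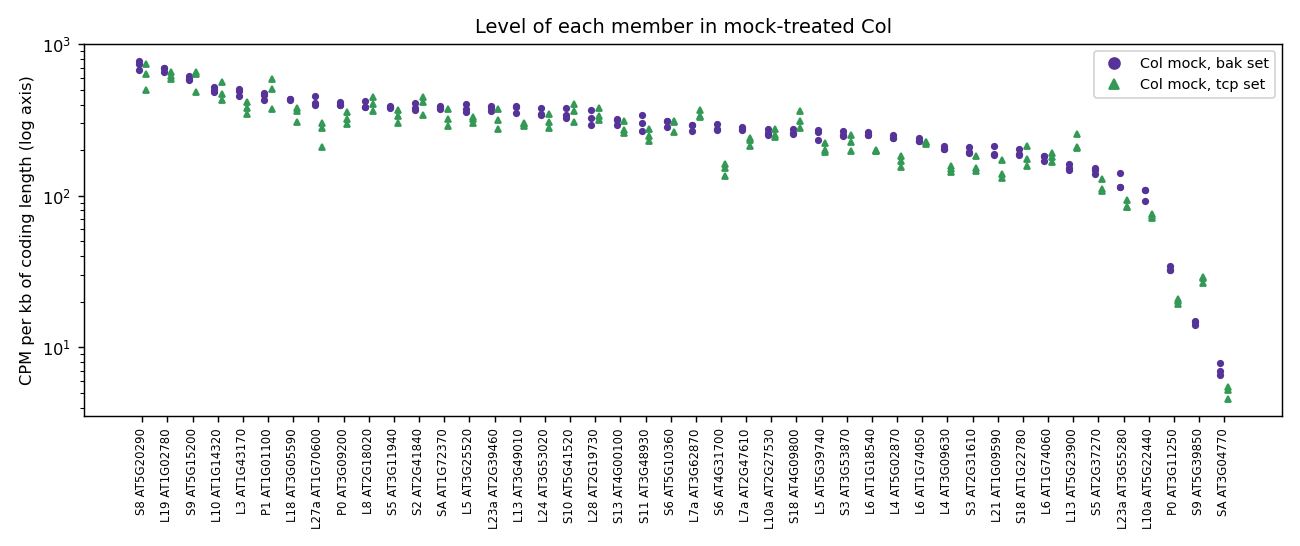
Level of each of the 44 genes in mock-treated Col, in CPM per kilobase of coding length on a log axis, with 1 point per library (circles bak set, triangles tcp set) and genes ordered by the bak set. S8 AT5G20290 is highest (mean 733 and 624 CPM per kb) and SA AT3G04770 lowest (7.13 and 5.10 CPM per kb).

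Together the 44 genes took about 1% of all counts, and their sum fell most in submerged tcpq, from the highest mock level of any genotype. In mock tcpq they took 1.29%, 1.27% and 1.30% of counts, against 0.801%, 0.937% and 0.862% in mock Col of the same set and 0.745%, 0.755% and 0.803% in mock tcp21. In submerged libraries the tcp set converged on 0.697% ± 0.026 (SD, n = 3) in tcpq, 0.747% ± 0.032 in Col and 0.787% ± 0.002 in tcp21. In the bak set, Col went from 0.910% ± 0.039 in mock to 0.729% ± 0.055 in submerged seedlings, and bak1-3 bkk1-1 from 0.923% ± 0.025 to 0.619% ± 0.021. Mock and submerged libraries did not overlap in any genotype except tcp21, where the submerged libraries (0.786% to 0.789%) lay within the mock range. These shares use plain library totals; with totals scaled by TMM, which balances the bulk of genes, the log2 ratio of submerged to mock was -0.04 in place of -0.21 in Col of the tcp set, 0.20 in place of 0.04 in tcp21 and -0.57 in place of -0.88 in tcpq. The overlap of libraries also depended on the scaling. With TMM-scaled totals mock and submerged libraries overlapped in Col of the tcp set (0.737% to 0.895% and 0.766% to 0.814%). In tcp21 they did not, and the submerged libraries lay higher (0.730% to 0.788% in mock and 0.854% to 0.870% in submerged seedlings). In bulk seedlings fewer cells of a type and less RNA per cell cannot be told apart.

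**Figure D2:**
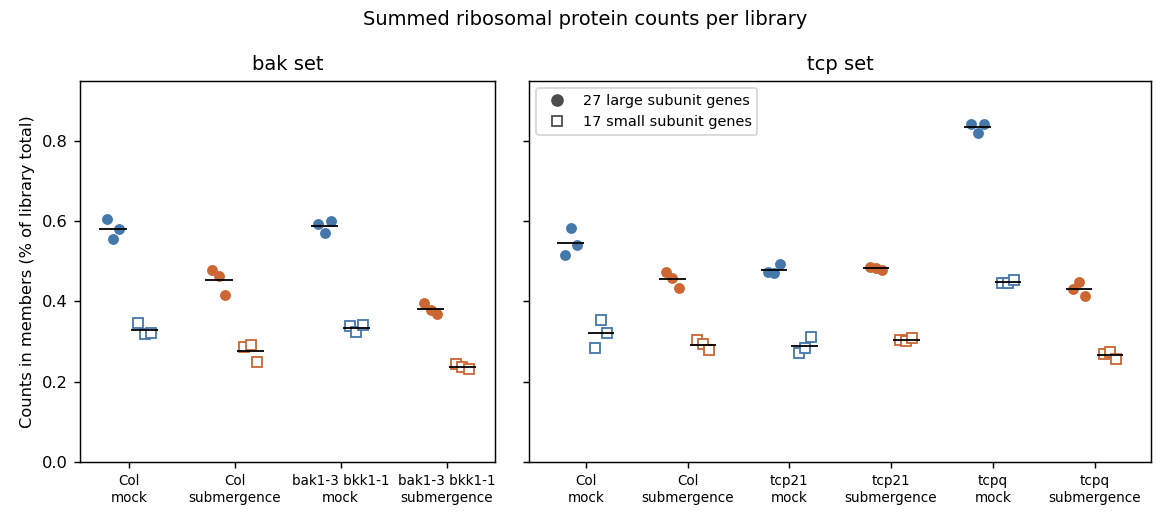
Counts of the 27 large subunit genes (filled circles) and the 17 small subunit genes (open squares) as a percentage of each library's total, by group, with group means as lines (blue mock, orange submergence). Mock tcpq stands above all other groups, at means of 0.836% for the large and 0.449% for the small subunit.

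In Col of the bak set submergence lowered most of the genes by modest amounts: 30 of 44 (68.2%) fell and 1 rose, against 24.1% and 25.4% of all genes tested (edgeR's quasi-likelihood test, Benjamini-Hochberg adjusted p below 0.05). The median over the 44 was -0.33 on the log2 scale, against 0.01 over all genes. Most affected was L27a AT1G70600, a large subunit protein, at 202, 174 and 180 CPM in mock and 107, 103 and 86.1 CPM in submerged libraries. The groups did not overlap, and L27a fell by 0.91 (log2, SE 0.10, adjusted p = 1.0e-06, edgeR). P0 AT3G09200, the core of the acidic stalk that recruits translation factors, stood at 402, 382 and 384 CPM in mock and 233, 238 and 210 CPM in submerged libraries, and fell by 0.78 (SE 0.09, adjusted p = 6.01e-07, edgeR). L23a AT2G39460, which lies near the exit of the peptide tunnel, went from 176, 169 and 181 to 118, 121 and 107 CPM and fell by 0.61 (SE 0.09, adjusted p = 1.31e-05, edgeR). In each of these genes every submerged library lay below every mock library; over all 44 genes, 33 had all submerged below all mock libraries, against 28% of all genes tested.

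The 1 gene that rose in Col of the bak set was L13 AT5G23900, at 100, 91.9 and 95.4 CPM in mock and 111, 128 and 108 CPM in submerged libraries. It rose by 0.27 (log2, SE 0.09, adjusted p = 0.0178, edgeR), and the call was lost when either of 2 single libraries was left out. Its paralog AT3G49010 fell by 0.58 (SE 0.08, adjusted p = 1.7e-05, edgeR). Without the mock library rich in seed storage transcripts 28 genes fell and none rose, all 28 among those called with it. Mesophyll markers moved in the same direction as the ribosomal genes, from a mean sum of 31783 to 15679 CPM, and markers of dividing cells from 67.9 to 50.7 CPM; their part in the result was not tested.

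The mutant bak1-3 bkk1-1 showed the same fall more broadly: 39 of 44 genes (88.6%) fell and none rose, against 26.4% and 26.3% of all genes tested, with a median of -0.54 (edgeR; 0 rose also by DESeq2 and at unadjusted p below 0.05, where 28.4% of all genes did). All 30 genes that fell in Col also fell in the mutant, where they make up 76.9% of the falling genes. This overlap was not counted over all genes, so it is not shown to be particular to the 44. The test for a different response in the mutant called only 0.029% of all genes lower and 0.00968% higher. L27a AT1G70600 went from 169, 181 and 194 CPM to 73.1, 83.2 and 88.7 CPM and fell by 1.15 (log2, SE 0.11, adjusted p = 5.17e-08, edgeR). P0 AT3G09200 went from 369, 378 and 395 CPM to 184, 188 and 179 CPM and fell by 1.05 (SE 0.09, adjusted p = 1.32e-08, edgeR). L23a AT2G39460 fell by 0.98 (SE 0.09, adjusted p = 3.87e-08, edgeR), from 180, 176 and 178 to 81.7, 93.0 and 95.0 CPM. These 3 genes thus led the response in both genotypes, with no overlap between mock and submerged libraries. L13 AT5G23900 stood at 88.0, 99.0 and 94.6 CPM in mock and 99.8, 105 and 103 CPM in submerged libraries and did not pass the test (0.13, SE 0.09, adjusted p = 0.24, edgeR). Mesophyll markers went from a mean sum of 29412 to 12293 CPM and dividing cell markers from 73.0 to 43.3 CPM; their part was not tested.

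Between the mutant and Col the 44 genes hardly differed in mock, with 0 called by edgeR (0.721% of all genes were higher and 0.135% lower), 0 at unadjusted p below 0.05 (5.22% of all genes higher and 3.33% lower), 0 by DESeq2 and a median of -0.03. Under submergence 3 genes (6.82%) were lower in the mutant and 0 higher, against 0.75% and 0.629% of all genes. L18 AT3G05590 stood at 164, 170 and 153 CPM in submerged Col and 131, 122 and 123 CPM in the submerged mutant. It was lower by 0.37 (log2 fold change -0.37, SE 0.08, adjusted p = 0.0306, edgeR), with no overlap of libraries. L6 AT1G18540 (135, 135 and 121 against 106, 105 and 94.1 CPM) had a log2 fold change of -0.36 (SE 0.09, adjusted p = 0.0423, edgeR), and L23a AT2G39460 one of -0.36 (SE 0.09, adjusted p = 0.0489, edgeR). All 44 estimates were negative, with a median of -0.24, and 29 were negative at an unadjusted p below 0.05, against 7.84% of all genes tested. In 32 genes every mutant library lay below every Col library, against 9.07% of all genes. DESeq2 called 12 genes lower and 0 higher. It also called more of all genes, 668 with 278 of them higher, against 285 and 130 by edgeR. The count was 0 or 1 without any single library except the third submerged Col library, without which it was 5. Seed storage transcripts summed to between 131 and 261 CPM in the submerged Col libraries and to at most 2.03 CPM in the submerged mutant, and mesophyll markers to a mean of 15679 and 12293 CPM; their part in the difference was not tested.

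The test of whether the mutant responded differently from Col, the interaction, called 0 of the 44 genes (edgeR; DESeq2 also 0), against 0.029% of all genes in the lower and 0.00968% in the higher direction. The estimate was negative in 43 of 44 genes, with a median of -0.22 on the log2 scale, and 8 of them had an unadjusted p below 0.05, against 4.27% of all genes lower at that level. For L23a AT2G39460 it was -0.38 (SE 0.12, adjusted p = 0.47, edgeR), and the smallest adjusted p over the 44 genes was 0.467.

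In Col of the tcp set the response was mixed: 12 of 44 genes (27.3%) fell and 5 (11.4%) rose, close to the 22.9% and below the 27.1% of all genes tested, with a median of -0.08. S9 AT5G39850, the scarce gene for this small subunit protein, went from 17.1, 17.3 and 15.8 CPM to 10.3, 9.22 and 10.1 CPM, a fall by 0.76 (log2, SE 0.11, adjusted p = 1.85e-06, edgeR). P0 AT3G09200 went from 285, 346 and 309 to 227, 230 and 193 CPM and fell by 0.53 (SE 0.08, adjusted p = 1.41e-06, edgeR). L4 AT5G02870 fell by 0.39 (SE 0.08, adjusted p = 0.000175, edgeR), from 190, 225 and 209 to 166, 174 and 135 CPM. Mock and submerged libraries of these 3 genes did not overlap.

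The rising genes of that Col included both members for S18, a protein of the small subunit head. S18 AT1G22780 stood at 72.6, 97.7 and 80.1 CPM in mock and 118, 107 and 111 CPM in submerged libraries and rose by 0.42 (log2, SE 0.08, adjusted p = 0.000134, edgeR). S18 AT4G09800 rose by 0.40 (SE 0.08, adjusted p = 0.000244, edgeR), from 128, 167 and 143 to 196, 173 and 208 CPM. L21 AT1G09590 rose by 0.29 (SE 0.09, adjusted p = 0.00641, edgeR), L13 AT5G23900 by 0.22 (SE 0.07, adjusted p = 0.012, edgeR) and S6 AT4G31700 by 0.21 (SE 0.08, adjusted p = 0.022, edgeR). Of the 30 genes that fell in Col of the bak set, 11 (36.7%) also fell here, where they are 91.7% of the falling genes, and 2 rose. This overlap was not counted over all genes, and the difference between the sets was not tested. The mixed picture depends on the scaling: with plain library totals the median of all genes moved to -0.14 and 27 members fell while 2 rose, and the share of higher calls among all called genes went from 54.2% to 35%. Without the library whose genotype field names bak1-3 bkk1-1, 16 fell and 2 rose. Mesophyll markers went from a mean sum of 27909 to 31126 CPM, and dividing cell markers from 15.3 to 28.8 CPM; their part was not tested.

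In tcp21 more genes rose than fell under submergence: 19 of 44 (43.2%) rose and 3 (6.82%) fell, against 24.1% and 24.7% of all genes tested, with a median of 0.16. S18 AT1G22780 went from 72.6, 72.9 and 72.5 CPM to 113, 97.2 and 104 CPM and rose by 0.53 (log2, SE 0.09, adjusted p = 6.47e-06, edgeR). S18 AT4G09800 rose by 0.48 (SE 0.08, adjusted p = 2.18e-05, edgeR), and P1 AT1G01100, an acidic protein of the stalk, by 0.47 (SE 0.14, adjusted p = 0.00837, edgeR), from 145, 131 and 161 to 214, 188 and 206 CPM. In these genes every submerged library lay above every mock library.

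The 3 genes that fell in tcp21 were the 3 scarcest of the 44 in mock Col. SA AT3G04770, for a protein of the small subunit, stood at 6.00, 5.48 and 5.26 CPM in mock and 2.17, 3.16 and 3.12 CPM in submerged libraries and fell by 1.00 (log2, SE 0.23, adjusted p = 0.000492, edgeR). S9 AT5G39850 fell by 0.37 (SE 0.12, adjusted p = 0.00861, edgeR) and P0 AT3G11250 by 0.26 (SE 0.09, adjusted p = 0.0249, edgeR). With plain library totals the median of all genes moved to -0.18, 9 members rose and 6 fell, and the share of higher calls went from 49.4% to 32.1%. The tcp21 libraries also carried more reads from the organelle genomes, 0.264% to 0.718% of counts in mock and 0.118% to 0.305% in submerged seedlings, against 0.031% to 0.086% in all other libraries. On plain library totals, root markers went from a mean sum of 142 to 84.1 CPM and mesophyll markers from 39089 to 34812 CPM. The TMM factors of library size were 1.02 to 1.03 in mock and 0.904 to 0.921 in submerged tcp21 libraries. The marker sums are thus not on the scale of the calls made with TMM, and whether mesophyll markers shifted on that scale was not computed. The part of these values in the result was not tested.

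In tcpq nearly all of the genes fell: 37 of 44 (84.1%) fell and 1 rose, against 30.6% and 32.8% of all genes tested, with a median of -0.65. SA AT3G04770 went from 14.4, 11.3 and 12.5 CPM to 2.51, 4.31 and 3.53 CPM and fell by 1.88 (log2, SE 0.21, adjusted p = 9.77e-09, edgeR). S9 AT5G39850 went from 39, 35.2 and 38.7 CPM to 11.5, 10.5 and 11.6 CPM and fell by 1.75 (SE 0.11, adjusted p = 2.74e-14, edgeR). L4 AT5G02870 went from 363, 385 and 385 to 149, 159 and 142 CPM and fell by 1.33 (SE 0.08, adjusted p = 1.41e-14, edgeR). Mock and submerged tcpq libraries were far apart in all 3 genes. P0 AT3G11250 fell by 1.22 and P0 AT3G09200 by 1.11, so both P0 genes fell, while P1 AT1G01100, the other stalk gene among the 44, did not pass. S18 AT4G09800 was the exception and rose by 0.40 (SE 0.08, adjusted p = 0.000139, edgeR), from 136, 148 and 136 to 188, 184 and 182 CPM. It rose in all 3 genotypes of this set; it overlaps AT4G09810 on the opposite strand, which was counted at 0.753 to 3.78 CPM. With plain library totals none of the 44 genes rose in tcpq while 42 fell, the median of all genes then being -0.30 and the share of higher calls 31.9% in place of 51.7%. Mesophyll markers went from a mean sum of 22286 to 31732 CPM; their part was not tested.

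Set side by side, the 3 genotypes of the tcp set sorted the genes into a few patterns of calls. There were 12 genes that did not pass in Col, rose in tcp21 and fell in tcpq, among them S8 AT5G20290, L19 AT1G02780 and L23a AT2G39460. A further 10 fell in Col and tcpq and did not pass in tcp21, among them P0 AT3G09200, SA AT1G72370 and both L4 and both L5 genes. L10a AT2G27530 fell in Col and tcpq and rose in tcp21 (0.19, SE 0.07, adjusted p = 0.016, edgeR). S9 AT5G39850 fell in all 3 genotypes. All 12 genes that fell in Col fell in tcpq, and 13 of the 19 that rose in tcp21 fell in tcpq. In tcpq 37 of the 44 genes fell in any case. How often all genes show these patterns was not counted, so the patterns are not shown to be particular to the 44.

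**Figure D3:**
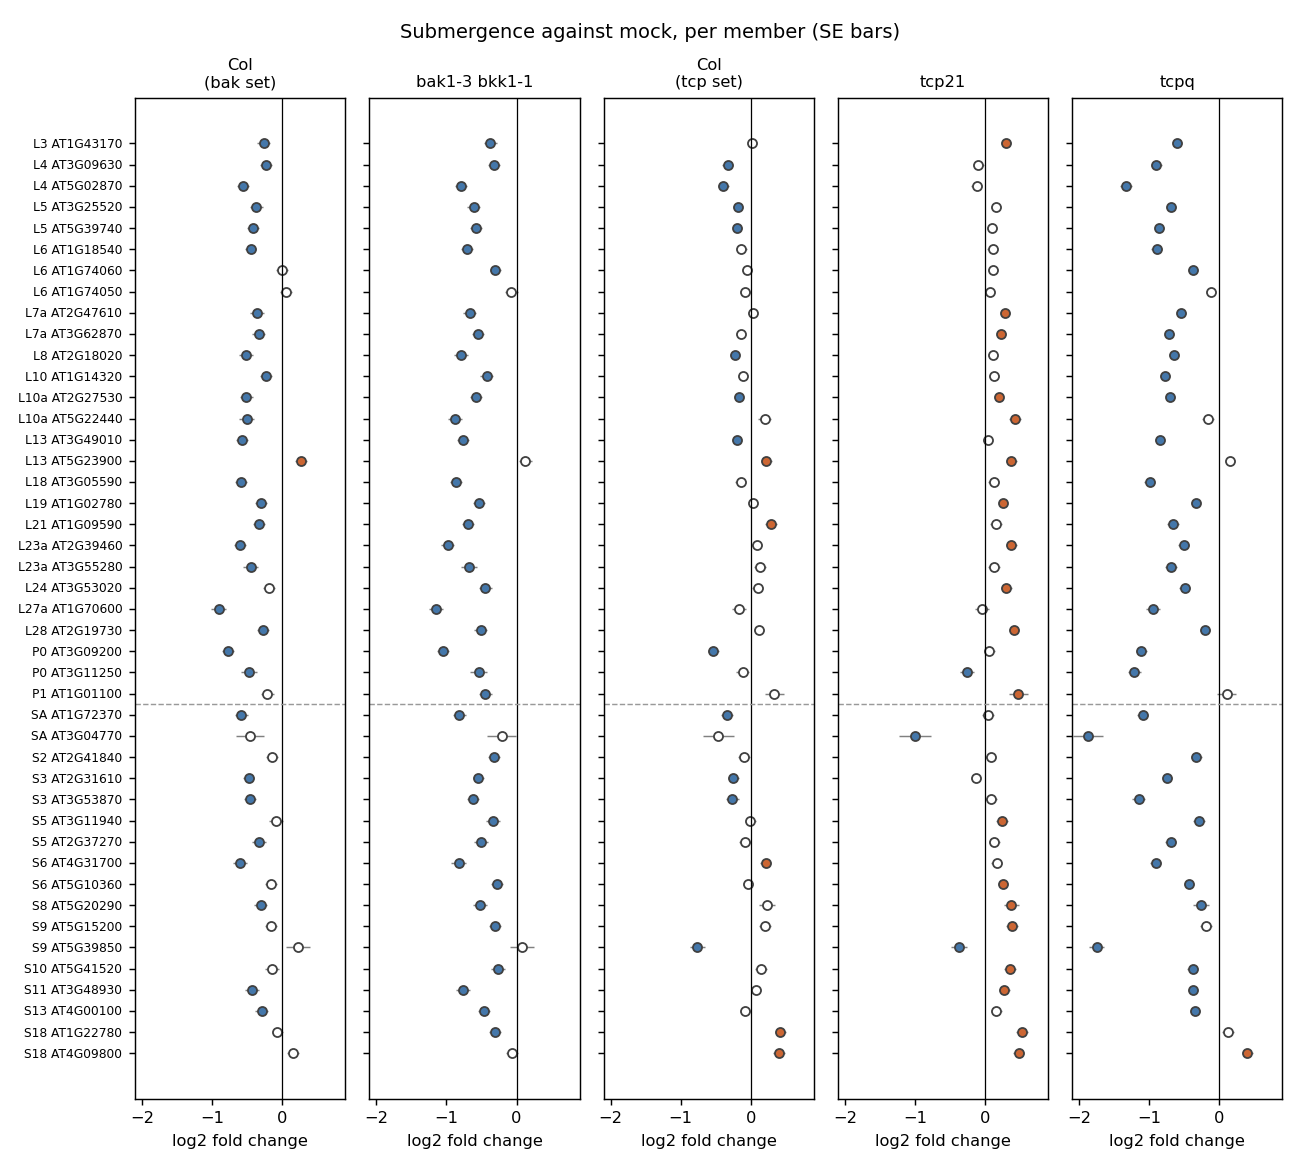
Log2 fold change of submerged against mock seedlings for each of the 44 genes (rows, large subunit above the dashed line) in the 5 genotype panels, with SE bars; blue points fell, orange points rose and white points did not pass the test. Blue dominates in Col of the bak set (30 genes), bak1-3 bkk1-1 (39) and tcpq (37), while tcp21 has 19 orange points.

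The mock level of most of the genes was higher in tcpq than in Col. In mock 38 of 44 genes (86.4%) were higher in tcpq and 0 lower, against 25.8% and 22.6% of all genes tested (edgeR; 0 lower also by DESeq2 and at unadjusted p below 0.05, where 24.9% of all genes were), with a median of 0.47. The comparison uses the same mock tcpq libraries as the submergence response. SA AT3G04770, at 4.58, 5.47 and 5.22 CPM in mock Col and 14.4, 11.3 and 12.5 CPM in mock tcpq, was higher by 1.32 (log2, SE 0.21, adjusted p = 3.68e-06, edgeR). S9 AT5G39850 was higher by 1.17 (SE 0.11, adjusted p = 2.12e-10, edgeR), with 17.1, 17.3 and 15.8 CPM in Col. P0 AT3G11250, at 20.2, 19.8 and 18.7 CPM in Col and 42.2, 39.9 and 40.7 CPM in tcpq, was higher by 1.06 (SE 0.09, adjusted p = 9.26e-11, edgeR). The 3 genes scarcest in Col were thus the ones with the largest mock difference in tcpq, and their libraries did not overlap. Without the Col library whose genotype field names bak1-3 bkk1-1 the count was 35; with plain library totals it was 41, the median of all genes then being 0.15 and the share of higher calls 64.6% in place of 53.3%. Between mock Col and mock tcpq, dividing cell markers went from a mean sum of 15.3 to 25.6 CPM, root markers from 78.5 to 111 CPM and mesophyll markers from 27909 to 22286 CPM; their part was not tested.

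The difference between tcpq and Col was small in submerged seedlings, where 1 of 44 genes was lower and 0 higher, against 7.82% and 8.7% of all genes (edgeR; 6 were lower and 0 higher at unadjusted p below 0.05, against 13.8% and 15% of all genes, and DESeq2 called 1 lower and 0 higher). It was S6 AT4G31700, a target of the TOR pathway's S6 kinase, at 139, 130 and 121 CPM in Col and 111, 114 and 99.4 CPM in tcpq, with a log2 fold change of -0.27 (SE 0.08, adjusted p = 0.0123, edgeR). The groups did not overlap, and the call was lost without the first submerged Col library and without the third submerged tcpq library. The median over the 44 genes was -0.08.

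In tcp21 the mock difference from Col went the other way: 13 genes (29.5%) were lower and 1 higher, against 23% and 23.8% of all genes, with a median of -0.12, so the share that was lower lay near the background. S9 AT5G39850, at 10.1, 12.3 and 9.35 CPM in tcp21, had a log2 fold change of -0.66 (SE 0.11, adjusted p = 1.51e-05, edgeR). L10a AT2G27530 (160, 179 and 165 CPM in Col, 115, 125 and 126 CPM in tcp21) had one of -0.46 (SE 0.07, adjusted p = 1.52e-06, edgeR), and L23a AT2G39460 one of -0.44 (SE 0.08, adjusted p = 3.01e-05, edgeR). L4 AT3G09630 was the 1 gene that was higher (0.26, SE 0.08, adjusted p = 0.00676, edgeR). With plain library totals 21 were lower and 1 higher, the median of all genes then being -0.06 and the share of higher calls 42.9% in place of 50.8%. Mean marker sums in mock Col and mock tcp21 were 15.3 and 32.2 CPM for dividing cells, 78.5 and 142 CPM for root and 27909 and 39089 CPM for mesophyll, and organelle reads made up means of 0.0452% and 0.418% of counts; their part was not tested.

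Under submergence 11 genes (25%) were higher in tcp21 than in Col and 1 lower, against 12.3% and 14.4% of all genes, with a median of 0.07. L4 AT3G09630 was higher by 0.50 (log2, SE 0.08, adjusted p = 3.5e-05, edgeR), P0 AT3G09200 by 0.33 (SE 0.08, adjusted p = 0.00226, edgeR; 227, 230 and 193 CPM in Col, 273, 268 and 276 CPM in tcp21) and S5 AT3G11940 by 0.32 (SE 0.08, adjusted p = 0.00495, edgeR). L21 AT1G09590 was lower (log2 fold change -0.25, SE 0.09, adjusted p = 0.0329, edgeR). Without the third submerged Col library 5 genes were called, 4 of them higher, and without the third submerged tcp21 library 7, all higher; with plain library totals 7 were higher and 3 lower, the share of higher calls among all genes going from 46.1% to 35.3%.

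Compared directly in mock, 39 genes (88.6%) were higher in tcpq than in tcp21 and 0 lower, against 25.8% and 26.6% of all genes (edgeR; 40 higher and 0 lower at unadjusted p below 0.05, against 28.4% and 29.1% of all genes, and 39 and 0 by DESeq2), with a median of 0.63. S9 AT5G39850 differed most, by 1.83 (log2, SE 0.11, adjusted p = 2.09e-14, edgeR), followed by SA AT3G04770 with 1.18 (SE 0.20, adjusted p = 1.27e-05, edgeR) and L23a AT2G39460 with 1.00 (SE 0.08, adjusted p = 8.28e-12, edgeR). All 44 were higher with plain library totals, where the median of all genes was 0.16 and the share of higher calls 66.4% in place of 49.3%. Under submergence 15 genes (34.1%) were lower in tcpq and 1 higher, against 5.44% and 8.08% of all genes, with a median of -0.18. L4 AT3G09630 had a log2 fold change of -0.39 (SE 0.08, adjusted p = 0.00127, edgeR), L4 AT5G02870 one of -0.38 (SE 0.08, adjusted p = 0.00202, edgeR) and L3 AT1G43170, which lies at the peptidyl transferase centre, one of -0.37 (SE 0.07, adjusted p = 0.000483, edgeR). S9 AT5G39850 was the 1 gene that was higher (0.45, SE 0.12, adjusted p = 0.0109, edgeR). The count of 16 was 10 without the third submerged library of tcp21 or that of tcpq. These comparisons share libraries with those against Col and are no separate evidence.

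The response of tcpq differed from that of Col in 36 of 44 genes (81.8%), all with a lower value of the response in tcpq, against 17.1% of all genes in the lower and 17.5% in the higher direction; 43 estimates were negative, with a median of -0.57. Of the 36, 12 fell in both genotypes, 20 fell in tcpq and did not pass in Col, and 2 rose in Col and fell in tcpq, while S9 AT5G15200 and L10a AT5G22440 passed in neither. SA AT3G04770 had the largest interaction, -1.41 (log2, SE 0.31, adjusted p = 0.00058, edgeR). S6 AT4G31700 rose in Col, from 102, 121 and 114 to 139, 130 and 121 CPM, and fell in tcpq, from 205, 201 and 202 to 111, 114 and 99.4 CPM, with an interaction of -1.12 (SE 0.11, adjusted p = 1.9e-09, edgeR). P0 AT3G11250 followed with -1.10 (SE 0.13, adjusted p = 1.4e-07, edgeR). With plain library totals 40 genes were called, the median of all genes then being -0.16 and the share of higher calls 35.5% in place of 50.5%.

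The response of tcp21 differed from that of Col in 14 genes (31.8%), all in the upward direction, against 14.7% of all genes in that direction and 16.3% in the other; 39 estimates were positive, with a median of 0.23. P0 AT3G09200 stood out with 0.59 (log2, SE 0.11, adjusted p = 0.000106, edgeR): its mock and submerged libraries in tcp21 lay at 253, 244 and 286 and at 273, 268 and 276 CPM, while it fell in Col. SA AT1G72370 (0.38, SE 0.12, adjusted p = 0.0126, edgeR), L7a AT3G62870 (0.37, SE 0.09, adjusted p = 0.00197, edgeR) and L10a AT2G27530 (0.37, SE 0.09, adjusted p = 0.00322, edgeR) came next. The remaining 10 were called at 0.22 to 0.35. The count rested on single libraries: it was 5 without the second and 9 without the third mock Col library, 8 (7 higher and 1 lower) without the third submerged Col library, 9 without the first submerged tcp21 library, and 21 without the mock Col library whose genotype field names bak1-3 bkk1-1. The responses of tcp21 and tcpq are each set against the same Col libraries.

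Medians of large and small subunit genes had the same sign in each comparison, and lay further from 0 for the large subunit in every submergence response except that of tcp21. In Col of the bak set 22 of 27 large and 8 of 17 small subunit genes fell, against 24.1% of all genes, with medians of -0.37 and -0.29. In bak1-3 bkk1-1 it was 25 and 14, against 26.4%, with medians of -0.58 and -0.34. In tcpq 23 large and 14 small subunit genes fell under submergence, against 30.6%, with medians of -0.69 and -0.38. In mock tcpq 24 and 14 were higher than in Col, against 25.8%, with medians of 0.54 and 0.35. In tcp21, 11 large and 8 small subunit genes rose, against 24.1%, with medians of 0.13 and 0.16. The summed counts of large over small subunit genes were accordingly lower in submerged seedlings, at 1.59 to 1.68 against 1.74 to 1.81 in Col of the bak set and 1.61 to 1.63 against 1.84 to 1.89 in tcpq. They were also lower without overlap in bak1-3 bkk1-1 and in Col of the tcp set (1.56 to 1.57 against 1.65 to 1.82), while in tcp21 the groups overlapped (1.55 to 1.61 against 1.59 to 1.74). The difference between subunits was not tested, since genes are not replicates of a condition.

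**Figure D4:**
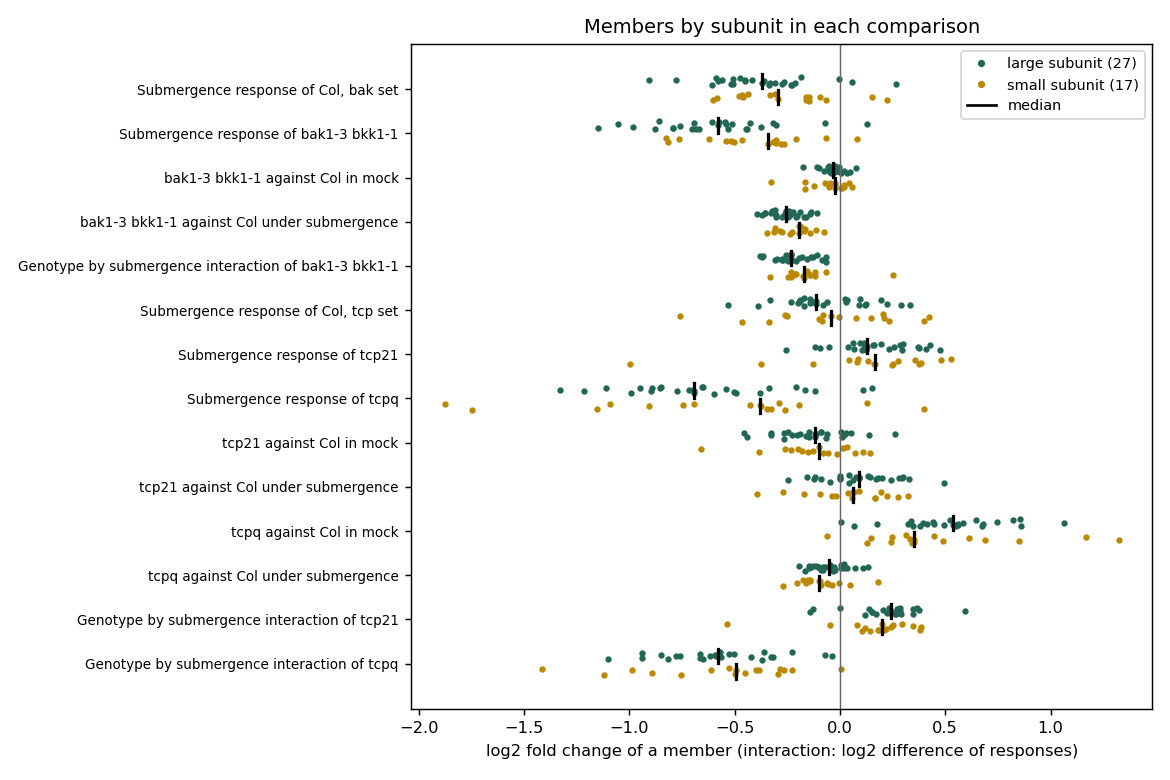
Log2 fold change of each member, or log2 difference of responses for interactions, in 14 comparisons (rows), with large subunit genes in green, small subunit genes in ochre and medians as black bars. In the response of tcpq the medians are -0.69 for the large and -0.38 for the small subunit, and in mock tcpq against Col they are 0.54 and 0.35.

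Paralogs of one protein did not always share a response; among pairs within the 44, taking for each the larger change of the 2 sets, the genes for S9, L13 and SA shifted most against each other. Of 53 paralog pairs with enough counts, the bak set had 33 whose log2 ratio changed under submergence, and the tcp set also 33 (exact two-sided permutation test within genotypes, Benjamini-Hochberg over the 53 pairs). Of the 16 pairs in which both genes are among the 44, 11 and 9 changed. The smallest p the design allows is 0.005 for the bak and 0.00025 for the tcp libraries. The coding sequences of those 16 pairs are 65.6% to 94.2% identical, and how reads shared by paralogs were counted is not given in the sources used here, so the split within a pair is uncertain to that extent.

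L13 shifted the same way in every genotype. AT5G23900 took 29.6%, 29.7% and 28.1% of the pair's counts in mock Col of the bak set and 40.5%, 44.9% and 41.8% in submerged Col. In bak1-3 bkk1-1 its mean share went from 29.8% to 43.9%, in Col of the tcp set from 43.1% to 50.5%, in tcp21 from 44.6% to 50.5% and in tcpq from 34.2% to 50.9%. Mock and submerged libraries did not overlap in any of the 5. The log2 ratio of AT3G49010 to AT5G23900 changed by -0.86 in the bak set (exact permutation p = 0.005, adjusted p = 0.0115) and by -0.59 in the tcp set (exact permutation p = 0.00025, adjusted p = 0.0012).

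S9 shifted in opposite directions in the bak and the tcp set. The scarce AT5G39850 took 5.55%, 4.22% and 4.01% of the pair's counts in mock Col of the tcp set and 2.48%, 2.07% and 2.56% in submerged Col. In tcpq its share went from 8.26%, 7.11% and 7.93% to 2.69%, 2.64% and 3.02%, and in tcp21 from a mean of 2.96% to 1.75%. In the bak set it went from a mean of 2.38% to 3.10% in Col and from 2.19% to 2.84% in bak1-3 bkk1-1. The log2 ratio of AT5G15200 to AT5G39850 changed by 1.09 in the tcp set (exact permutation p = 0.00025, adjusted p = 0.0012) and by -0.38 in the bak set (exact permutation p = 0.005, adjusted p = 0.0115); the difference between the sets was not tested. In the bak set AT5G39850 itself did not pass the test in Col (0.22, SE 0.17, adjusted p = 0.28, edgeR).

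For SA, the scarce AT3G04770 took 2.43%, 2.02% and 1.81% of the pair's counts in mock tcp21 and 0.813%, 1.20% and 1.06% in submerged tcp21, and its mean went from 2.76% to 1.61% in tcpq. In Col of that set it took 1.74%, 1.61% and 1.77% in mock and 1.58%, 2.02% and 1.02% in submerged libraries, which overlap. The log2 ratio of AT1G72370 to AT3G04770 changed by 0.68 in the tcp set (exact permutation p = 0.00175, adjusted p = 0.0046); in the bak set it changed by -0.36 and did not pass (exact permutation p = 0.045, adjusted p = 0.068). AT1G72370 overlaps the ethylene response factor gene ERF73 (AT1G72360) on the opposite strand, and the strand used in counting is not given in the sources used here. ERF73 was counted at 3.86 to 10.3 CPM in mock and 8.56 to 32.1 CPM in submerged libraries, against 187 to 473 CPM for AT1G72370.

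In the bak set 5 further pairs within the 44 had larger changes than S9 and smaller ones than L13. L6 AT1G18540 against AT1G74050 changed by -0.57 and against AT1G74060 by -0.42, S6 AT4G31700 against AT5G10360 by -0.50, P0 AT3G09200 against AT3G11250 by -0.40 and L4 AT3G09630 against AT5G02870 by 0.40 (log2 ratio; each with exact permutation p = 0.005, adjusted p = 0.0115). In that set the more abundant P0 gene fell more than the scarce one, whose share went from a mean of 7.62% to 9.26% in Col. In the tcp set L10a AT2G27530 against AT5G22440 changed by -0.38 (exact permutation p = 0.0005, adjusted p = 0.0018), and L6 AT1G18540 against AT1G74050 by -0.26 without passing (exact permutation p = 0.0455, adjusted p = 0.069). For P0 AT3G09200 against AT3G11250 the mean change there was 0.01 and did not pass (exact permutation p = 0.96, adjusted p = 0.96), with changes of opposite sign in the genotypes: -0.42 in Col, 0.32 in tcp21 and 0.11 in tcpq.

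**Figure D5:**
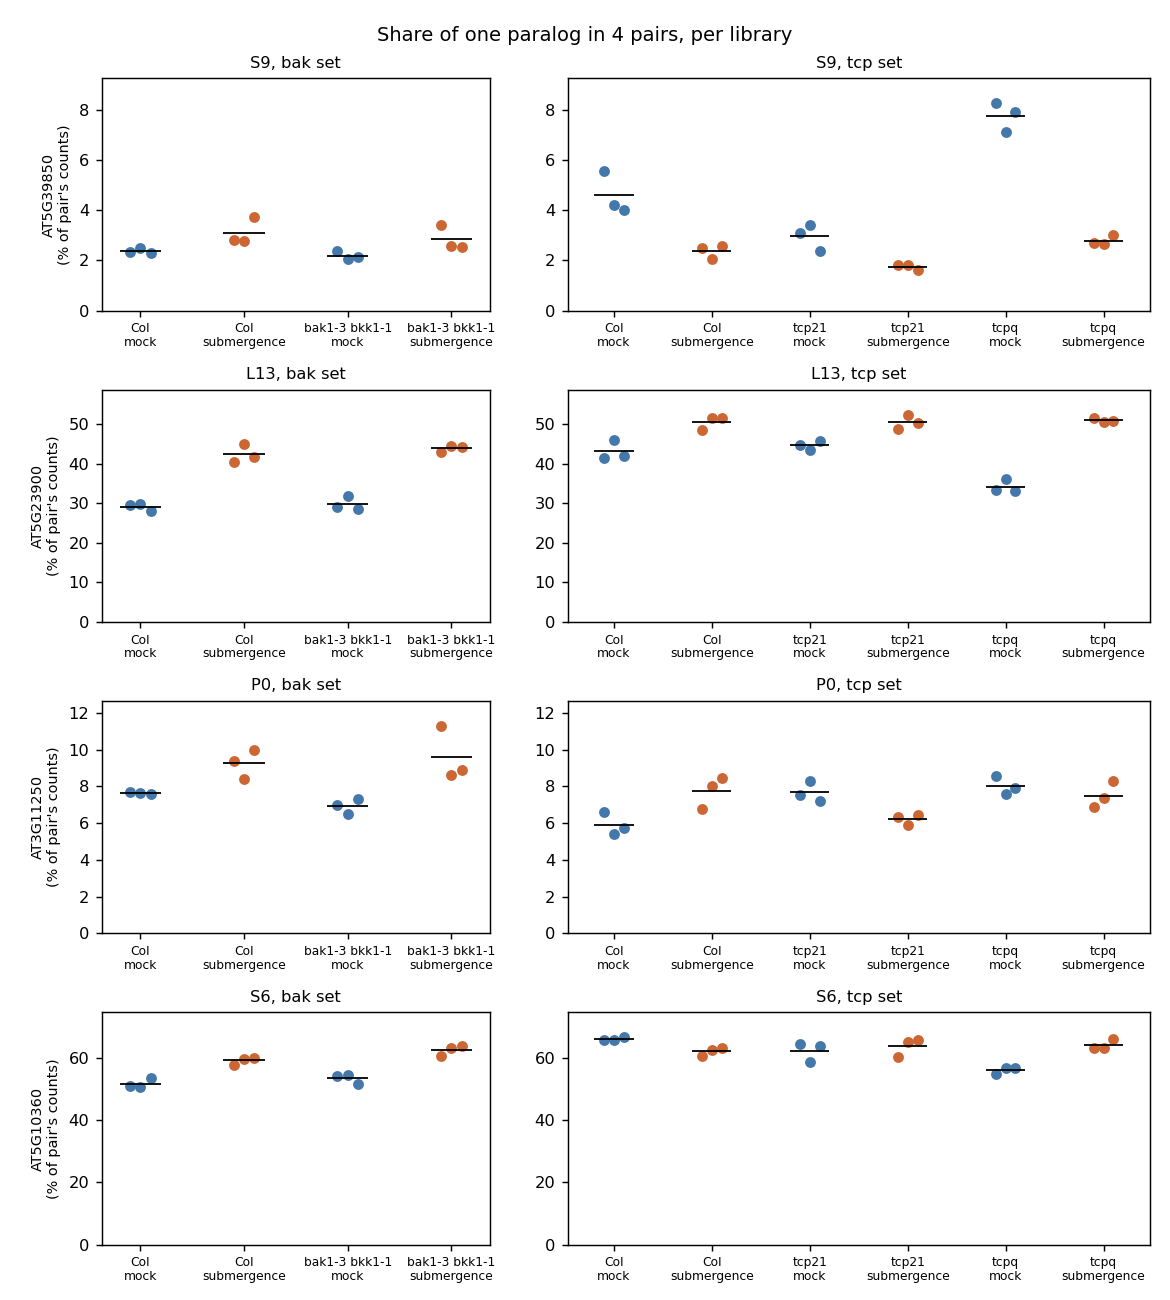
Share of one paralog in the pair's counts, in percent, per library (points) with group means (lines), for S9, L13, P0 and S6 (rows) in the bak set (left) and the tcp set (right); blue is mock and orange submergence, and axes start at 0. The L13 share of AT5G23900 is higher in submerged seedlings of every genotype, while the S9 share of AT5G39850 is higher in the bak set (2.38% to 3.10% in Col) and lower in the tcp set (4.59% to 2.37% in Col).

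The other paralogs of the same proteins, outside the 44, gave counts in the same directions in tcpq and in the bak set. In mock tcpq 20 of 26 tested were higher than in Col and 0 lower, against 25.8% and 22.6% of all genes. The median was 0.37. In submerged tcpq 21 fell and 2 rose, against 30.6% and 32.8%. In Col of the bak set 13 of 25 fell and 1 rose, against 24.1% and 25.4%. In bak1-3 bkk1-1 19 fell and 1 rose, against 26.4% and 26.3%. In Col of the tcp set 1 fell and 3 rose, against 22.9% and 27.1%. In tcp21 1 fell and 11 rose, against 24.7% and 24.1%.

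Genes that build ribosomes had larger median changes than the 44 genes in tcpq. Of 28 genes for ribosome biogenesis 27 were higher in mock tcpq than in Col, against 25.8% of all genes, with a median of 1.03. In submerged tcpq 27 fell, against 30.6%, with a median of -1.62. NUC-L1, the nucleolin that acts in ribosomal DNA transcription, was higher by 1.22 (log2, SE 0.06) in mock tcpq and fell by 2.20 (SE 0.06) under submergence. FIB2, the fibrillarin of small nucleolar particles, was higher by 2.33 (SE 0.11) in mock tcpq. In Col of the tcp set 24 of the 28 fell, against 22.9% of all genes, with a median of -0.57. In tcp21 7 rose and 6 fell, near the 24.1% and 24.7% of all genes. In Col of the bak set 8 fell, near the 24.1% of all genes, and 2 rose, against 25.4%. In bak1-3 bkk1-1 9 fell and 3 rose, against 26.4% and 26.3%. The interaction called 24 lower in tcpq, against 17.1% of all genes, and 19 higher in tcp21, against 14.7%.

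Translation factors changed in tcpq in the same directions as the cytosolic ribosomal genes, and plastid ribosomal proteins fell in the bak set and rose in Col and tcpq of the tcp set. Of 22 translation factors 17 were higher and 0 lower in mock tcpq than in Col, against 25.8% and 22.6% of all genes. Under submergence 16 fell in tcpq and 1 rose, against 30.6% and 32.8%. Among those that fell was the poly(A)-binding protein PAB4, by 1.27 (log2, SE 0.08). Of 18 plastid ribosomal protein genes tested 12 fell in Col of the bak set, against 24.1% of all genes. In bak1-3 bkk1-1 17 fell, against 26.4%. In the tcp set 15 rose in Col, against 27.1%, and 11 in tcpq, against 32.8%. Differences from the cytosolic genes were not tested. The TOR pathway is known to couple nutrient and energy state to ribosome production. The list of 8 genes used for it also held a gene for a TCP transcription factor. Of the 8, 5 rose and 1 fell in Col of the bak set, against 25.4% and 24.1% of all genes. In bak1-3 bkk1-1 5 rose and 0 fell, against 26.3% and 26.4%. In Col of the tcp set 0 rose and 4 fell, against 27.1% and 22.9%. In tcp21 2 rose and 1 fell, against 24.1% and 24.7%. In submerged tcpq 1 of the 8 rose and 4 fell, against 32.8% and 30.6% of all genes, with a median of -0.25. The 1 that rose was S6K2, whose product is an S6 kinase, by 2.60 (SE 0.14). In mock tcpq 2 were higher than in Col and 2 lower, against 25.8% and 22.6% of all genes. S6K2 was among the lower (log2 fold change -2.25, SE 0.14).

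Counts of called genes are given apart for the 26 genes with and the 18 without site II in the upstream window. In mock tcpq 23 of 26 genes with and 15 of 18 without the element were higher than in Col, against 25.8% of all genes, with medians of 0.45 and 0.52. In submerged tcpq 23 of 26 and 14 of 18 fell, against 30.6%, with medians of -0.67 and -0.60. In submerged tcp21 11 of 26 and 8 of 18 rose, against 24.1%. In bak1-3 bkk1-1 25 of 26 and 14 of 18 fell, against 26.4%, with medians of -0.53 and -0.56. In Col of the bak set 17 of 26 and 13 of 18 fell, against 24.1%, with medians of -0.32 and -0.35. In mock tcp21 9 of 26 and 4 of 18 were lower than in Col, against 23% of all genes. In submerged tcp21 5 of 26 and 6 of 18 were higher than in Col, against 12.3%. In submerged tcpq 10 of 26 and 5 of 18 were lower than in tcp21, against 5.44%. The difference between these classes was not tested.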

How the data were processed

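Both deposited tables give raw counts for each gene, as their whole-number values show; the authors trimmed reads with fastp 0.23.1 and aligned them with STAR 2.7.9a to TAIR10, per the submitters' processing notes. For the counting tool, its annotation and its strand setting: not given in the sources used here. The 44 genes, the gene lists and the tests were chosen with earlier results of these data known.

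Counts were fitted separately for each set with edgeR 4.0.16 (filterByExpr, TMM, robust quasi-likelihood test, all groups of a set as a means model, 8 and 12 residual degrees of freedom). P-values were adjusted by Benjamini-Hochberg over the 20666 and 20385 genes kept, and a gene was called at an adjusted p below 0.05. The standard error is the fold change divided by the root of the F statistic. CPM values of single genes are scaled by TMM. Sums of marker genes, also given in CPM, use plain library totals.

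Paralogs had at least 60% protein identity over 80% of length (BLAST 2.17.0+ on TAIR10.1); ratios used counts plus 0.5 and pairs with a mean of at least 10 counts. Replicate numbers did not pair libraries: residual correlations of same-numbered libraries ran from -0.09 to 0.07 in the bak set and from -0.08 to 0.07 in the tcp set. Named genes are up to 3 called members per direction and comparison with the largest change, the 3 highest and lowest by level, the 5 paralog pairs per set with the largest change, members called in an interaction, and the up to 3 genes of a list with the smallest adjusted p. Alternatives were library totals without TMM, no filter, only the groups compared, a replicate block, DESeq2 1.42.0 and leaving out each library. The edgeR and paralog tests were checked on simulated data.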

Additional observations from a re-analysis of the deposited data

Results flagged for a closer look

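The submergence response differed from that of Col in 14 genes in tcp21 and in 36 genes in tcpq, by edgeR's test of the interaction, at an adjusted p below 0.05 in each; the values are log2 differences of the responses. Both sets of values use the same Col libraries.

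In tcp21 the large subunit genes were P0 AT3G09200 at 0.59, L7a AT3G62870 at 0.37 and AT2G47610 at 0.26, L10a AT2G27530 at 0.37, L8 AT2G18020 at 0.35, L5 AT3G25520 at 0.34 and AT5G39740 at 0.29, L28 AT2G19730 at 0.29, L3 AT1G43170 at 0.28, L13 AT3G49010 at 0.24 and L19 AT1G02780 at 0.22. The small subunit genes were SA AT1G72370 at 0.38, S3 AT3G53870 at 0.35 and S6 AT5G10360 at 0.30. The call of L13 was lost in 14 and that of L19 in 13 of 18 fits that left out 1 library.

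In tcpq the P0 genes lay at -1.10 (AT3G11250) and -0.58 (AT3G09200), while the other stalk gene, P1 AT1G01100, was not called. Among the other large subunit genes, L4 AT5G02870 and L21 AT1G09590 lay at -0.94, L18 AT3G05590 at -0.85, L23a AT3G55280 at -0.82 and AT2G39460 at -0.59, L27a AT1G70600 at -0.78, and L6 AT1G18540 at -0.76 and AT1G74060 at -0.32. L5 AT5G39740 lay at -0.66 and AT3G25520 at -0.50, L10 AT1G14320 at -0.66, L13 AT3G49010 at -0.65, L3 AT1G43170 at -0.62, L24 AT3G53020 at -0.59, and L4 AT3G09630, L7a AT2G47610 and L7a AT3G62870 at -0.57. L10a AT2G27530 lay at -0.53 and AT5G22440 at -0.36, L8 AT2G18020 at -0.42, L19 AT1G02780 at -0.37 and L28 AT2G19730 at -0.33. Of these, the call of L10a AT5G22440 was lost in 3 and that of L6 AT1G74060 in 1 of 18 fits that left out 1 library.

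The small subunit genes in tcpq began with the value furthest from 0. SA AT3G04770 lay at -1.41 and AT1G72370 at -0.76, S6 AT4G31700 at -1.12 and AT5G10360 at -0.39, S9 AT5G39850 at -0.99 and AT5G15200 at -0.40, and S3 AT3G53870 at -0.89 and AT2G31610 at -0.50. S5 AT2G37270 lay at -0.61, S10 AT5G41520 at -0.53, S8 AT5G20290 at -0.50 and S11 AT3G48930 at -0.45.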

How the results depend on the processing

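Depth (17466180 to 33957452 counts) limits mainly the scarce genes SA AT3G04770 and S9 AT5G39850; 3 libraries a group limit the small differences. Under the alternatives 341 counts of called genes stayed within 1.5 times and 29 did not, and 2191 values of named genes kept direction and call while 124 kept only direction. With plain library totals the median over the 44 genes turned to 0.018 for bak1-3 bkk1-1 against Col in mock and to -0.0051 for the tcp21 response, the calls rose to 29 (2 higher, 27 lower) in Col of the tcp set and to 22 for tcp21 against Col in mock, and the share of higher calls among all genes for the interaction of bak1-3 bkk1-1 went from 25% of 8 to 14.3% of 14. With TMM-scaled totals the log2 ratio of summed level was -0.030 for bak1-3 bkk1-1 against Col in mock (0.020 with plain totals), -0.038 for the response of Col of the tcp set, 0.199 for tcp21 and -0.571 for tcpq, 0.121 for tcp21 against Col under submergence, and in mock 0.454 for tcpq against Col and 0.570 against tcp21. The 3 calls of bak1-3 bkk1-1 against Col under submergence became 1 without a filter and 0 with only the groups compared. With DESeq2 they became 12, while 668 of all genes were called in place of 285. The 16 calls of tcpq against tcp21 under submergence became 28 with only the groups compared. The cause was not tested.

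The replicate block, used although the numbers do not pair the libraries, left 1 of those 3 calls and moved no other count by over 1.5 times.

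Leaving out single libraries, the calls ranged from 0 to 5 for bak1-3 bkk1-1 against Col under submergence, 5 to 21 for the interaction of tcp21, 5 to 14 for tcp21 and 0 to 1 for tcpq against Col under submergence, and 10 to 18 for tcpq against tcp21 under submergence. The median of bak1-3 bkk1-1 against Col in mock ranged from -0.063 to 5.5e-05.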

Other observations

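A wider list of 250 ribosomal protein genes, taken by product name and still holding some organelle proteins, had 224 genes tested in each set. In submerged tcp21 119 of them rose and 6 fell, against 24.1% and 24.7% of all genes, with a median log2 fold change of 0.30. In Col of the same set 71 rose and 38 fell, against 27.1% and 22.9%, with a median of 0.12. In submerged tcpq 116 fell and 30 rose, against 30.6% and 32.8%, with a median of -0.32. In mock tcpq 123 were higher than in Col and 15 lower, against 25.8% and 22.6%. In Col of the bak set 87 fell and 19 rose, against 24.1% and 25.4%. In bak1-3 bkk1-1 132 fell and 12 rose, against 26.4% and 26.3%. The list shares 0 genes with the 44 described above and 0 with their 32 other paralogs, and no cause was tested.

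The poly(A)-binding protein gene PAB8 fell with PAB4 in submerged Col (by 0.42), tcp21 (by 0.31) and tcpq (by 1.01, log2) of the tcp set. NOP56, a core protein of small nucleolar particles, fell by 0.74 in submerged Col and by 0.94 in bak1-3 bkk1-1 of the bak set. AT4G31420, also of the ribosome biogenesis list, rose by 0.75 in that Col. Of the 28 genes in the list 8 fell and 2 rose in Col, against 24.1% and 25.4% of all genes. In the mutant 9 fell and 3 rose, against 26.4% and 26.3%.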
